A study of Mus musculus with 5 samples.

Results

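The transcripts described here encode the core of the Ras and MAP kinase (MAPK) cascade: Ptpn11, Sos1, Hras, Nras, Shoc2, Braf, Map2k1 and Map2k2. Their signals were read in arch tissue taken by dissection from embryos of wild-type mice at E10.5. Every probe set annotated to exactly 1 gene of this set was taken, which gave 15 of the 22690 probe sets in the table and covered 7 of the 8 genes. Hras had no such probe set in the annotation used and is not analysed here. The 5 samples form 1 group of separate tissue isolates, so no condition could be compared. Per the labels the dissected piece contained the arches and the second heart field, a pool of progenitors that lengthens the heart tube at both ends. The strain was 129P2/OlaHsd after 2 generations of backcrossing to C57BL/6. RNA of each isolate (10 ng) was amplified and hybridised to an Affymetrix Mouse Genome 430A array, which reports 1 signal per probe set. The spread between the 5 samples therefore includes amplification and hybridisation as well as differences between embryos. The labels name no litters, and p-values measure the spread between these samples only.

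In this cascade an activated growth factor receptor recruits adaptors, the phosphatase SHP2 (encoded by Ptpn11) and the exchange factor SOS1, which loads Ras proteins with GTP. Ras then engages RAF kinases such as BRAF, RAF kinases phosphorylate MEK1 and MEK2 (encoded by Map2k1 and Map2k2), and these phosphorylate the ERK kinases. SHOC2 forms a complex with MRAS and protein phosphatase 1 that removes an inhibitory phosphate from RAF. Germline mutations that raise the activity of this pathway cause the RASopathies, among them Noonan, Costello and cardio-facio-cutaneous syndromes, in which heart and facial development are altered. The cells that build the arches, among them neural crest and cardiac progenitors, are known to use the pathway downstream of FGF receptors.

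The stretches before the transcription starts of 4 of these genes are shown first, as the regulatory sequence next to each measured transcript. Ptpn11 and Braf carry a motif shared by few promoters, and Map2k1 and Map2k2 are the MEK pair of which Map2k1 alone was above background. Each line gives the 250 bases upstream of the start, 5′ to 3′ on the gene's strand, from RefSeq (build GRCm38.p6), with motif matches in capitals. The arrays measured transcripts and not these windows.
Ptpn11 chr5:121191398-121191647 (- strand): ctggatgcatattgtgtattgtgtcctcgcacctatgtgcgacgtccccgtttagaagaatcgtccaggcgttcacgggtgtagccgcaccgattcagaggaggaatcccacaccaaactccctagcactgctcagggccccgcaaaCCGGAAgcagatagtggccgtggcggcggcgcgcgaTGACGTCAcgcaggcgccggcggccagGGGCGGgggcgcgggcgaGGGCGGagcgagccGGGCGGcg
Braf chr6:39725464-39725713 (- strand): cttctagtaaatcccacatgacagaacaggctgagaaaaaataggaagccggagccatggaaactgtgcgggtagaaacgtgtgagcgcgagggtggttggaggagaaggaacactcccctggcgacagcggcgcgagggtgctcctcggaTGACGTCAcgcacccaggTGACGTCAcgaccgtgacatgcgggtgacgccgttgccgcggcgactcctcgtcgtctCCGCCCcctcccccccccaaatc
Map2k1 chr9:64253606-64253855 (- strand): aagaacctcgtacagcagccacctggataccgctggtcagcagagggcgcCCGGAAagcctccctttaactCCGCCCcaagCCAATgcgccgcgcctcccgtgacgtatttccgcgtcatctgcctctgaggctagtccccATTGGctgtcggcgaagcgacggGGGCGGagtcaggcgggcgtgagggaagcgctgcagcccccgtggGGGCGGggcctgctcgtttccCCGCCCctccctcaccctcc
Map2k2 chr10:81105665-81105914 (+ strand): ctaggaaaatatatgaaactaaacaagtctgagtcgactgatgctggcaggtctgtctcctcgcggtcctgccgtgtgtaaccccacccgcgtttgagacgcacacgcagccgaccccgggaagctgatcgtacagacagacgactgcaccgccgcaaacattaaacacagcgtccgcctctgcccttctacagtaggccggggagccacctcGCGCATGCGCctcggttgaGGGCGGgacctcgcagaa

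The capitals mark matches on either strand to the GC box GGGCGG, the cAMP response element TGACGTCA, the CCAAT box CCAAT, the ETS core CCGGAA, the E-box CACGTG, the NRF1 core GCATGCGC and the TATA box TATAAA. Motifs were chosen after these windows had been seen, and a match is a description of letters. Matches of 1 motif may overlap each other. All 8 genes, Hras included, were matched in the RefSeq table, with 9 windows because Shoc2 has 2 starts. TGACGTCA occurred in Ptpn11 and, at 2 positions, in Braf, against 1.55% of 32851 windows of the same length. GGGCGG occurred in windows of 7 genes, all but Sos1, against 32.7% of all windows. CCGGAA occurred in 5 genes (Ptpn11, Sos1, Hras, Shoc2 and Map2k1), against 12.03% of all windows. CCAAT occurred in Hras, Shoc2 and Map2k1, against 33.9% of all windows. CACGTG occurred in Nras (6.02% of all windows), GCATGCGC in Sos1 and Map2k2 (2.26%) and TATAAA in 0 of the 9 windows (12.4%). The windows were rich in CpG: the observed over expected ratio of CG dinucleotides ran from 0.58 to 1.12 and exceeded 0.6 in 8 of the 9, against 33.95% of all windows, whose median was 0.37. The GC content was 59.6% to 70.8% in 8 of the 9 windows, above the median of 52.4% over all windows, and 48.4% in Nras, below it.

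The median signal per array lay between 28.1 and 32.2. The background level of each array, against which detection was judged, was the 95th percentile over 191 probe sets of 162 genes of families restricted to tissues such as olfactory epithelium, hair and germ cells, and stood at a signal of 17.5, 16.3, 18.7, 22.6 and 23.2 in replicates 1 to 5. Between pairs of arrays the median absolute difference over 6687 genes above this level was 0.22 to 0.36 log2 units. Of 17 measured arch and second heart field markers 12 were above background, with Isl1 at 1387 ± 223 (SD, n = 5) and Crabp1 at 2740 ± 355, while Tbx1 (28.2 ± 10.9), Nkx2-5, Hand2, Dlx5 and Tcf21 were not. Of markers of other cell types, 10 of 10 neuron, 5 of 8 endothelium, 4 of 8 erythroid, 4 of 8 cardiac muscle, 2 of 7 liver and yolk sac and 1 of 8 leukocyte genes were above background, where 54.0% of all genes were. The erythroid, cardiac muscle, liver and yolk sac and leukocyte lists lay below that share and endothelium near it, so their counts alone do not show those cells. By signal, the erythroid genes Hbb-y (5639), Hbb-bh1 (4889), Tfrc (2118) and Hba-x (1606) lay far above the level. Hba-a1, Alas2, Gata1 and Klf1 of the same list were not called. The defining leukocyte gene Ptprc, at a signal of 13.6, was not above background, and Coro1a (166) was the 1 leukocyte gene called. Among the endothelial genes Tek (341), Cd34 (134), Flt1 (133), Emcn (118) and Kdr (87.8) were above background. Pecam1 (7.96), Cdh5 (16.4) and Tie1 (21.8) were not. The tissue was measured whole, so the cells that held a transcript are unknown, and fewer cells of a type cannot be told apart from less RNA per cell.

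Of the 7 measured genes, Ptpn11, Sos1, Nras, Shoc2, Braf and Map2k1 (6 in all) were above background, and Map2k2 was not. Detection was tested with limma as the mean excess of log2 signal over the array's background level, one-sided, with Benjamini-Hochberg adjustment over 22626 probe sets. A gene was called by its brightest probe set at an adjusted p below 0.05. Over all 12393 genes, 54.0% were called by the same rule. The median excess was 3.42 log2 units over the brightest probe sets of the 7 genes and 0.85 over those of all genes. Over all 15 probe sets it was 1.18, against 0.51 over all probe sets of the array. By probe set, 9 of 15 passed, against 50.1% of all probe sets, and these 9 were the ones above the level in 5 of 5 samples. A probe set that binds poorly gives a low signal whatever the amount of transcript, so signals of different probe sets do not rank genes by abundance, and a probe set that was not called does not show that its transcript was missing.

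**Figure D1:**
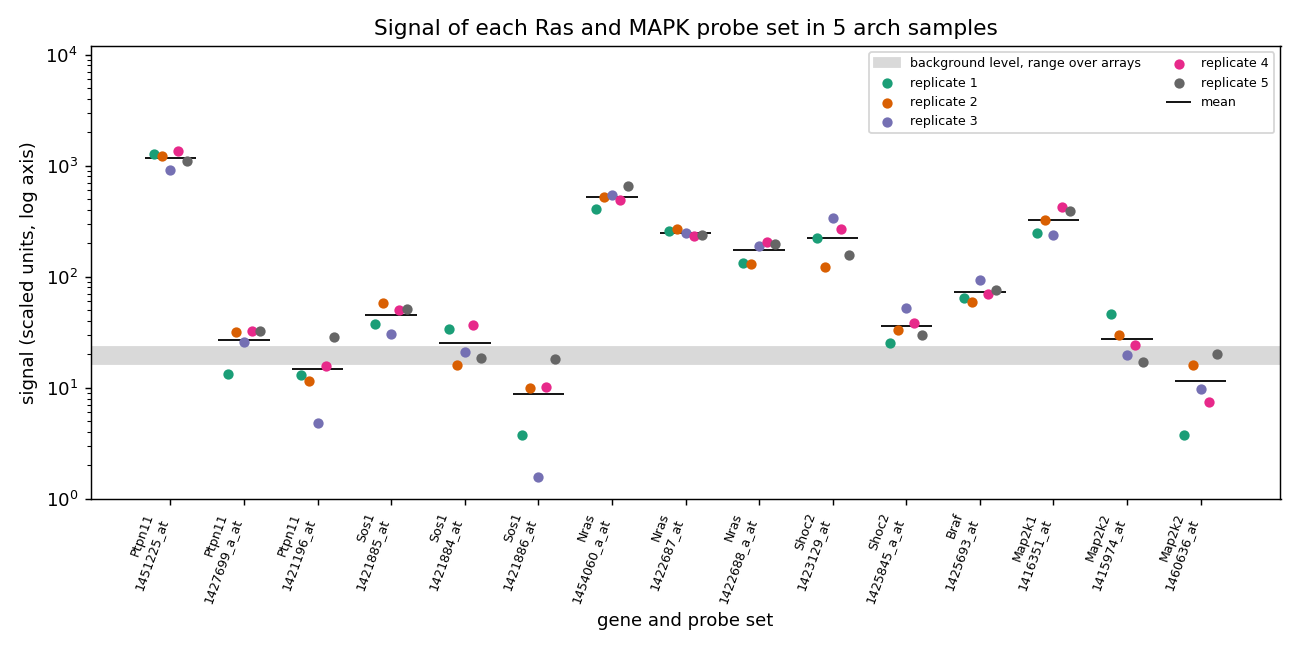
Signal of each of the 15 probe sets (log axis, scaled units) in the 5 samples, with the mean as a bar and the range of the background level (16.3 to 23.2) as a grey band. All points of 9 probe sets lie above the level of their array, and the 3 Nras probe sets are the only complete trio among the genes with several.

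Ptpn11 encodes SHP2, the phosphatase that acts beside activated receptors and is needed for full Ras activation. Its brightest probe set, 1451225_at, gave 1265, 1228, 924, 1369 and 1109 in replicates 1 to 5, a mean of 1179 ± 170.1 (SD, n = 5). All 5 values lay far above the level, replicate 3 being the lowest and replicate 4 the highest, 1.48 times apart. The excess was 5.91 log2 units (SE 0.14, adjusted p = 4.08e-24, limma). The other Ptpn11 probe sets did not pass. Probe set 1427699_a_at gave 13.4, 31.7, 25.8, 32.6 and 32.2, above the level in 4 samples and below it in replicate 1, with an excess of 0.41 (SE 0.25, adjusted p = 0.113, limma). Without replicate 1, its lowest value, the same probe set passed, with an excess of 0.60 (adjusted p = 0.0267, limma). It did not pass when any other replicate was left out (adjusted p 0.172 to 0.341, limma). Probe set 1421196_at gave 13.1, 11.6, 4.82, 15.6 and 28.8, above the level in replicate 5 alone. One gene thus had 1 bright probe set and a pair of dim ones.

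Sos1 encodes the exchange factor that is brought to the receptor by the adaptor GRB2 and exchanges GDP for GTP on Ras. Probe set 1421885_at gave 37.4, 57.6, 30.2, 50.2 and 50.8, a mean of 45.3 ± 11.1. All 5 samples were above the level, by an excess of 1.18 (SE 0.21, adjusted p = 6.28e-06, limma), with replicates 2, 4 and 5 higher than replicates 1 and 3. Probe set 1421884_at gave 33.6, 15.9, 20.9, 36.7 and 18.4 and did not pass (excess 0.29, adjusted p = 0.269, limma). Its values straddled the level, with 3 samples above and 2 below. Probe set 1421886_at stayed below the level in every sample, between 1.56 in replicate 3 and 18.3 in replicate 5.

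Nras encodes a small GTPase that passes the signal from SOS1 to RAF kinases when bound to GTP. Its 3 probe sets were all above background. Probe set 1454060_a_at gave 405, 517, 548, 488 and 656, a mean of 523 ± 91.5 and an excess of 4.73 (SE 0.15, adjusted p = 3.13e-21, limma). Probe set 1422687_at gave 259, 269.7, 246, 232 and 238, a mean of 249 ± 15.3 and an excess of 3.67 (SE 0.16). Its values differed least between samples among the 15 probe sets, with the highest 1.16 times the lowest. Probe set 1422688_a_at gave 134, 132, 191, 208 and 198, a mean of 172 ± 36.6 and an excess of 3.12 (SE 0.16). The 3 probe sets did not order the samples alike, since the highest sample was replicate 5, 2 and 4 in turn. Over all genes that were called and had 2 or more probe sets, 1874 of 3627 (51.7%) also had a probe set without a call, as Ptpn11 and Sos1 did and Nras and Shoc2 did not.

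Shoc2 encodes a leucine-rich repeat scaffold that holds the RAF-activating phosphatase complex together. Probe set 1423129_at gave 224.5, 122, 336, 271 and 155, a mean of 222 ± 86.5, with an excess of 3.42 (SE 0.19, adjusted p = 9.65e-16, limma). The highest sample, replicate 3, was 2.75 times the lowest, replicate 2. Probe set 1425845_a_at gave 25.1, 33.5, 51.8, 38.3 and 29.6, a mean of 35.7 ± 10.2 and an excess of 0.83 (SE 0.22, adjusted p = 0.00101, limma). It also had its highest value in replicate 3 and its second highest in replicate 4, whereas its lowest was in replicate 1.

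Braf encodes the RAF kinase most often mutated in cardio-facio-cutaneous syndrome and was represented by 1 probe set. The signal was 64.3, 59.7, 92.9, 69.5 and 76.0, a mean of 72.5 ± 12.9. All samples were above the level, with replicate 3 highest, and the excess was 1.88 (SE 0.18, adjusted p = 2.06e-10, limma).

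Map2k1 and Map2k2 encode MEK1 and MEK2, the kinases that RAF activates and that phosphorylate ERK. Map2k1, with 1 probe set, gave 249, 326, 239, 424 and 388, a mean of 325 ± 82.2. All 5 samples were above the level, by an excess of 4.02 (SE 0.16, adjusted p = 4.46e-19, limma), with replicates 4 and 5 highest and replicates 1 and 3 lowest. For Map2k2, probe set 1415974_at gave 45.9, 29.8, 19.6, 24.1 and 17.1, a mean of 27.3 ± 11.5. Replicate 1 was the highest and replicate 5 fell below the level, and the excess of 0.40 (95% confidence interval -0.15 to 0.95) did not pass (adjusted p = 0.147, limma). Without replicate 5, its lowest value, it did, with an excess of 0.60 (adjusted p = 0.0375, limma). When any other replicate was left out it did not pass, and without replicate 1 the excess was 0.15 (adjusted p = 0.589, limma). Probe set 1460636_at lay below the level in every sample, from 3.75 in replicate 1 to 20.1 in replicate 5. The samples that were highest and lowest on one Map2k2 probe set were the lowest and highest on the other.

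**Figure D2:**
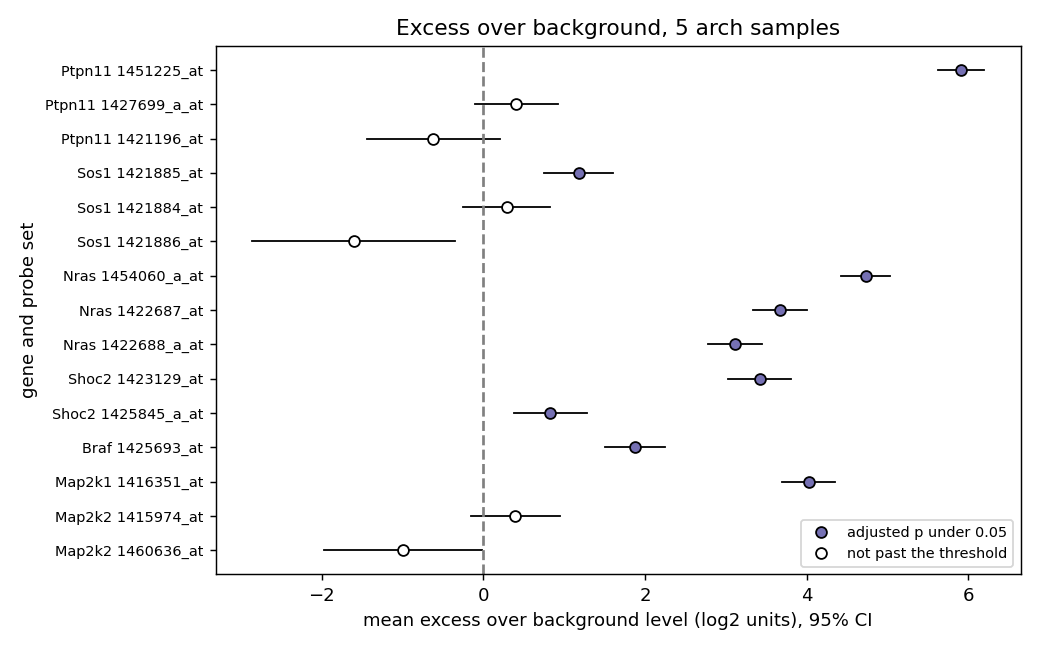
Mean excess of each probe set over the background level in log2 units, with the 95% confidence interval from limma, over 5 samples. Filled points have an adjusted p below 0.05, and intervals of 9 filled points lie above 0, from 0.83 for a Shoc2 probe set to 5.91 for Ptpn11.

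Among the background levels tried, the calls of Sos1 and Braf were lost only when widely expressed genes were added to the background families. With the 98th percentile as the level the excess was 1.51 for Braf (adjusted p = 6.36e-08, limma). For Sos1 1421885_at it was 0.81 (adjusted p = 0.000728, limma), and both also passed with the 90th percentile. When the background families also took in 11 casein kinase and interferon receptor genes, which are widely expressed, the level rose to a signal of 113 to 152. At this wider level Ptpn11 (excess 3.11), Nras (1.94), Map2k1 (1.23) and Shoc2 (0.62) remained called, 4 of 7 genes against 24.6% of all genes. Sos1 (-1.61) and Braf (-0.91) lay below it. Of the 15 probe sets, 5 passed there, against 21.2% of all probe sets. The call of Sos1 also rested on its brightest probe set. When the log2 signals of all probe sets of a gene were averaged, the excess of Sos1 was -0.05 (SE 0.27, adjusted p = 1, limma) and it was not called, while Ptpn11 (1.90), Nras (3.84), Shoc2 (2.12), Braf (1.88) and Map2k1 (4.02) were. That made 5 of 7 genes, against 47.8% of all genes.

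No Ras or MAPK core probe set passed a test for more variation between samples than is usual at its signal. The variance over the 5 samples was set against limma's trend of variance on signal by an F test, for the 12 of 15 probe sets with a mean above the level, which leaves out the dimmest probe sets of Ptpn11, Sos1 and Map2k2. Of these 0 passed (lowest adjusted p = 0.881, F test against the limma trend), against 29 of 12746 probe sets in all (0.228%). An unadjusted p below 0.05 was seen for 1 of the 12, against 5.30% of all. That was Shoc2 1423129_at, with an SD of 0.59 log2 units where the trend stood at 0.30, a variance 3.90 times the trend (unadjusted p = 0.0309, F test against the limma trend). Map2k1 followed with 1.69 times the trend. At the other end Nras 1422687_at had an SD of 0.09 against a trend of 0.29. The median ratio was 0.96 over the 12 probe sets and 0.89 over all probe sets tested. In simulation this test recovered 65% of probe sets with an SD raised 3 times, and smaller raises were not simulated. The lack of a call therefore does not show that the spread of these genes was usual.

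**Figure D3:**
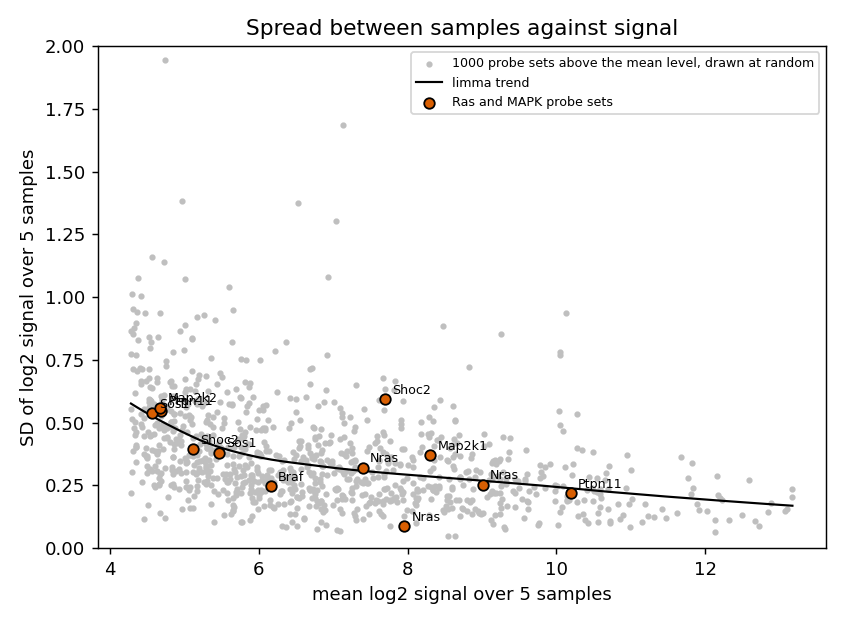
SD of log2 signal over the 5 samples against mean log2 signal, for the 12 probe sets with a mean above the level (orange), for 1000 other probe sets drawn at random (grey) and for limma's trend (line). Shoc2 stands at an SD of 0.59 and the lowest orange point, an Nras probe set, at 0.09.

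The 7 genes did not all have the same high and low samples, though some of them did. Each brightest probe set was centred on its own mean. The median over the 7 genes was -0.15, 0.04, -0.34, 0.19 and 0.09 log2 units in replicates 1 to 5. Over all 6687 called genes it ran from -0.02 to 0.04. A median over 7 genes scatters more than one over 6687, so these ranges do not show that the 7 genes moved more than others. In each sample between 3 and 5 of the 7 genes lay above their own mean. Which sample had the lowest median depended on the genes and probe sets taken. Without Map2k2, which was not above background, the median over the 6 called genes was lowest in replicate 1 (-0.19) and stood at -0.13 in replicate 3. With the mean over all probe sets of each of the 7 genes it was -0.21 in replicate 1 and -0.19 in replicate 3. Replicate 4 had the highest median in all 3 cases. Replicate 3 held the lowest values of Ptpn11 (-0.34), Sos1 (-0.54) and Map2k1 (-0.41) and the highest values of Shoc2 (0.69) and Braf (0.38). Replicate 4 held the highest values of Ptpn11 (0.23) and Map2k1 (0.42), and replicate 2 the lowest of Shoc2 (-0.77) and Braf (-0.26). The summed signal of the 10 neuron markers was highest in replicate 3 (7044) and lowest in replicate 4 (3766). The 8 erythroid markers were lowest in replicate 4 (10478) and highest in replicate 5 (18999), and the 17 arch markers ran from 6916 in replicate 4 to 8568 in replicate 1. Of the 7 marker lists the 7 liver and yolk sac genes had the largest ratio of highest to lowest summed signal, from 169.7 in replicate 4 to 1057 in replicate 5. The part of tissue composition in the spread of the Ras and MAPK genes was not tested.

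**Figure D4:**
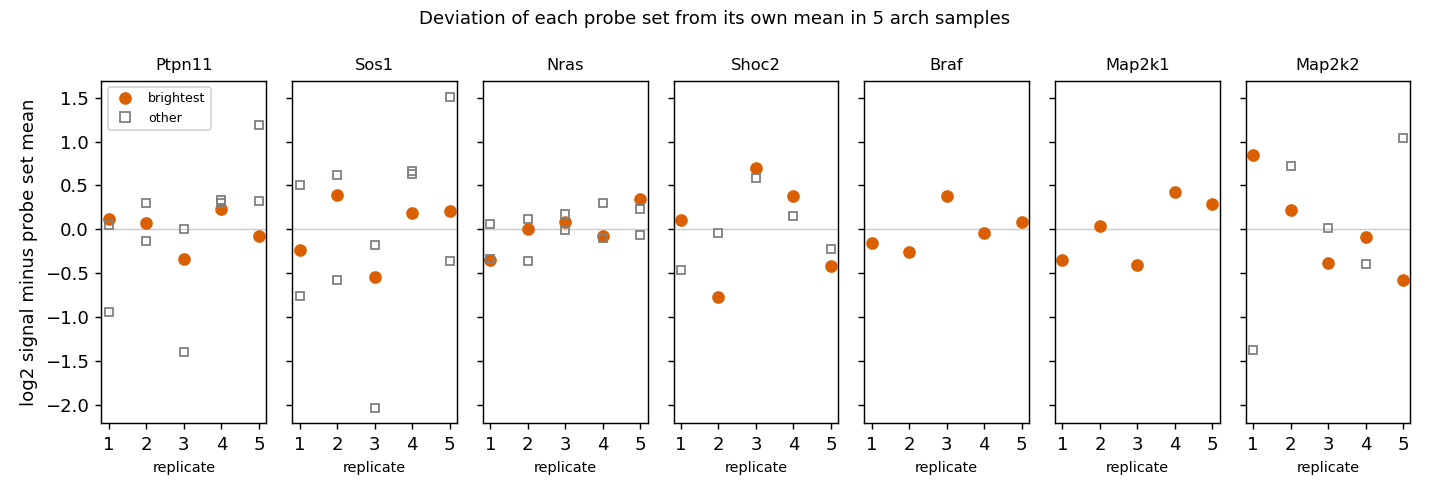
Log2 signal of each probe set minus its own mean, by replicate and gene, with the brightest probe set of a gene filled. Both Shoc2 probe sets are highest in replicate 3, where the brightest probe sets of Ptpn11, Sos1 and Map2k1 are lowest.

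The mean centred pattern of the 6 called genes was -0.14, -0.09, -0.02, 0.18 and 0.07 in replicates 1 to 5. Among 6681 other called genes, those closest to it by root mean square difference over the 5 samples were Lamtor3 (0.019 log2 units), Emc6 (0.019) and Psmb4 (0.027), where the median gene stood at 0.28. Lamtor3 gave 467, 497, 499, 582 and 540. With 5 samples of 1 group and this many candidates, close matches of this kind are a description of these arrays only.

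Other genes of the pathway were taken as lists by role. In total 37 of 60 measured genes (61.7%) were above background, against 54.0% of all genes, and their median excess was 1.45 log2 units against 0.85. At the wider level 20 of the 60 passed, against 24.6% of all genes, and with the mean over all probe sets of a gene 32 passed, against 47.8%. By list, the wider level left 1 Ras GTPase relative, 0 exchange factors, 2 GTPase-activating proteins and 3 adaptor or receptor-proximal genes called. It left 4 kinases and scaffolds, 4 SHOC2 complex genes, 4 feedback inhibitors and 2 ERK-responsive factors. The list counts below use the main level, cover few genes each and are to be read beside the 54.0% of all genes. Of the lists, 16 of 76 genes had no single-gene probe set in the annotation used and are not analysed here.

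Among relatives of the Ras GTPases 2 of 6 passed, Rras2 (293 ± 53.7, with 199 in replicate 5 and 298 or more elsewhere) and Rit1 (59.8 ± 13.9), a gene also mutated in Noonan syndrome. Mras, which encodes the GTPase partner of SHOC2, gave 18.6 ± 8.73 and was not called, nor were Rras (29.1 ± 17.5), Rit2 (9.91 ± 8.02) and Eras (0.80 ± 0.48). Of the exchange factors 1 of 6 passed, the Sos1 paralogue Sos2 (106 ± 24.5, excess 2.42). Rasgrp1, Rasgrp2, Rasgrp4, Rasgrf1 and Rasgrf2, exchange factors best known in blood cells and neurons, were not called, with mean signals of 5.33 to 15.6. Of the GTPase-activating proteins, which switch Ras off, 6 of 9 passed, namely Dab2ip (389 ± 91.5), Rasa1 (328 ± 49.9), Rasa2 (111 ± 36.3), Rasa3 (58.2 ± 11.97), Rasal2 (40.9 ± 8.33) and Nf1 (37.5 ± 8.09), the neurofibromatosis gene. Rasa4, Rasal1 and Rasal3 were not called, with mean signals of 2.86 to 5.44.

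Among adaptors and receptor-proximal genes 7 of 10 passed. Grb2, whose product carries SOS1 to receptors, gave 322 ± 77.9, and Gab1, whose product docks SHP2, gave 132 ± 22.8. The ubiquitin ligase gene Cbl gave 320.5 ± 138, the adaptor genes Crk 650.3 ± 181 (344 in replicate 4, 654 or more elsewhere), Crkl 93.8 ± 15.6 and Shc1 39.9 ± 8.20, and Lztr1, whose product promotes the degradation of Ras proteins, 52.0 ± 19.6. Gab2, Frs3 and Ptpn6 were not called. Ptpn6 encodes SHP1, the paralogue of SHP2 known from blood cells, and gave 9.99 ± 3.55.

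Of the kinases and scaffolds downstream of Ras 5 of 6 passed. The Braf relative Araf gave 40.0 ± 16.0 (excess 0.95), and the ERK substrate kinase gene Rps6ka3 gave 550.0 ± 101. Pebp1, which encodes an inhibitor of RAF (4471 ± 723), Ywhaz, a 14-3-3 protein that binds phosphorylated RAF (2990.0 ± 403), and Lamtor3, a scaffold of MEK1 (517 ± 44.8), were also called, and the scaffold gene Ksr1 (10.2 ± 5.58) was not. In the SHOC2 complex the 3 catalytic subunit genes of protein phosphatase 1 passed, Ppp1cb (3233 ± 506), Ppp1cc (3219 ± 228) and Ppp1ca (388 ± 76.7), as did Erbin (844 ± 83.2). Scrib (24.1 ± 5.12) and Mras did not, so the list gave 4 of 6.

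Feedback inhibitors of the pathway gave 6 of 8. Spred1 (477 ± 50.5), whose loss causes a RASopathy, and the ERK phosphatase gene Dusp6 (462 ± 81.1) were among them, with Spry2 (301 ± 78.1), Dusp7 (199 ± 42.7), Dusp9 (137 ± 50.6) and Spred2 (44.0 ± 18.2). Spry1 (2.90 ± 2.28) and Spry4 (2.81 ± 2.89) were not called. Transcription factors that respond to ERK gave 6 of 10, namely Ets2 (1254 ± 284), Elk4 (299 ± 40.3), Egr1 (104 ± 31.6), Elk3 (101 ± 41.2), Elk1 (92.4 ± 38.4) and Myc (49.2 ± 15.1). Etv4 (8.79 ± 6.33), Etv5 (7.27 ± 5.13), Fos (12.2 ± 3.98) and Fosl1 (2.17 ± 1.30) were not called. Etv4 and Etv5 are known targets of FGF signalling, but activity of the pathway was not measured. A probe set that was not called does not show that its transcript was missing.

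**Figure D5:**
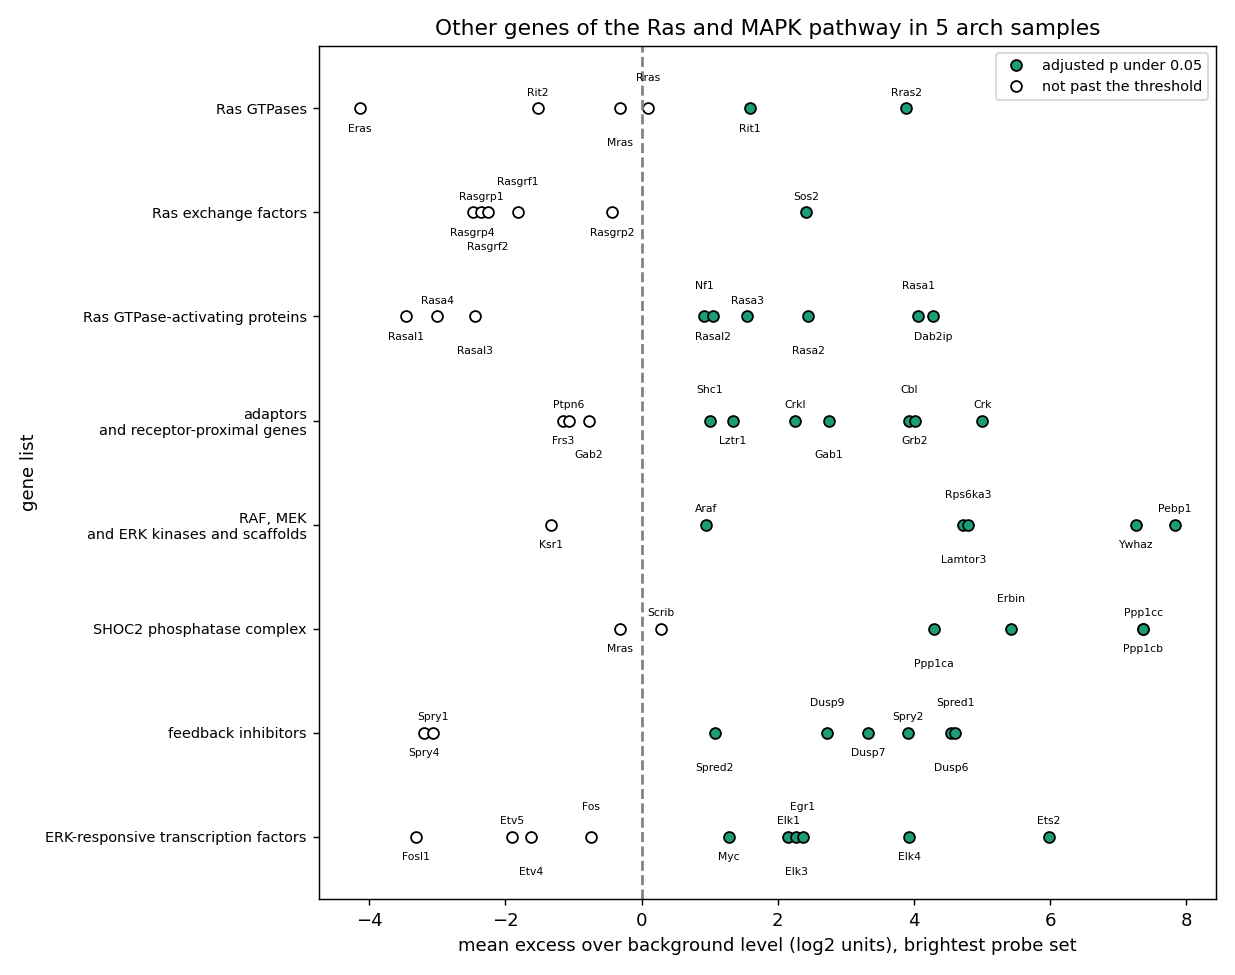
Mean excess over the background level in log2 units for the 60 measured pathway genes by list (Mras stands in 2 lists), each by its brightest probe set over 5 samples. Filled points are the 37 genes with an adjusted p below 0.05, and exchange factors other than Sos2 lie left of 0.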

How the data were processed

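The deposited table held linear intensity values (a signal for each probe set on each array), which the authors made with GCOS (Affymetrix's operating software) per the submitters' processing notes. Its version and settings are not given in the sources used here. In every array the mean after trimming 2% at each end was 150.1. The 64 control probe sets were left out. Symbols came from GEO's platform annotation, updated through Entrez identifiers with a RefSeq table (20351 of 20380 single-gene probe sets matched).

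Log2 was taken after setting signals under 1 to 1, and no other scaling was applied. Detection was tested with limma 3.58.1 in R 4.3.3 (lmFit, eBayes with trend and robust options). For variance, limma gave the robust trend (squeezeVar), and a separate F test set each variance against it. The background level is treated as known, so its own error is not in the p-values. A gene was represented by its brightest probe set, which favours a call for genes with many probe sets. Among 22626 simulated probe sets a small subset was given a known excess. Of these, 54% at 0.5 log2 units and 100% at 1 were recovered, and 0.172% of all calls were false. Seeded values were drawn as normal with the typical spread at that excess, so probe sets with a wider spread may be recovered less often. Simulated probe sets without an excess kept their measured distance below the level, often a large one. The share of false calls therefore does not hold for probe sets close to the level. The variance test was simulated on 12746 probe sets, of which a small subset had a raised SD. It recovered 65% of those raised 3 times and 97% of those raised 6 times, and 6.90% of its calls were false.

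Named were all probe sets of the 8 genes, the measured genes of the pathway lists and the 3 genes of nearest pattern. The genes and lists were chosen with earlier results of these data known. Alternatives were the percentile, the background families, the floor, quantile normalization, eBayes without trend, the mean of all probe sets, probe set suffixes and leaving out each replicate. The number of arrays limits the precision.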

Additional observations from a re-analysis of the deposited data

Results flagged for a closer look

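Among 77 genes and probe sets named, 9 had 1 sample far from the other 4 by Dixon's ratio of the gap to the range of log2 signal, where chance alone flags about 5% of such groups of normal values. On this array 8.55% of all probe sets had such a sample, 5.51% of those above background and 11.6% of the others. Of the named items it was 2 of 48 above background and 7 of 29 not above it. Of the 15 Ras and MAPK core probe sets 1 did: Ptpn11 1427699_a_at (ratio 0.736) gave 13.4 in replicate 1 and 25.8 to 32.6 in the others. Among genes above background, Crk (ratio 0.759) gave 344 in replicate 4 and 654 to 802 elsewhere, and Rras2 (0.804) gave 199 in replicate 5 and 298 to 328 elsewhere. The others were not above background. Mras (0.786) and Ptpn6 (0.747) were lowest in replicate 5, at 4.09 and 4.21. Gab2 (0.741) and Ksr1 (0.749) were lowest in replicate 3, at 2.99 and 1.31. Frs3 (0.734) was lowest in replicate 1, at 1.45, and Rasal1 (0.788) was highest in replicate 2, at 10.46, against at most 1.65 in the others.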

How the results depend on the processing

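The number of called core genes was 5 to 7 under all alternatives run except the wider background families, which gave 4; 7 was reached with the 90th percentile and without replicate 5, through Map2k2. The wider level also lowered the called probe sets from 9 to 5 and the pathway genes from 37 to 20, and it turned the excess negative for Sos1 1421885_at (-1.61) and 1421884_at (-2.51), Braf (-0.91), Shoc2 1425845_a_at (-1.97), Ptpn11 1427699_a_at (-2.39) and Map2k2 1415974_at (-2.40), because more widely expressed genes set the level. At the 98th percentile Sos1 1421884_at turned to -0.080. With the 90th percentile 12 probe sets passed. Leaving out each replicate gave 9 or 10 probe sets and 37 or 38 pathway genes. The 0 varying probe sets stayed at 0 under the 8 alternatives run, and the sample medians moved by less than their SD. With the mean over all probe sets of a gene, however, the median went from -0.34 to -0.19 in replicate 3 and from 0.09 to 0.23 in replicate 5, so that replicate 1 (-0.21) was the lowest sample; the core genes called fell to 5 through Sos1 and the pathway genes to 32. The unadjusted p of Shoc2 1423129_at was 0.125 without replicate 2 and 0.0792 without replicate 3. No paired analysis was possible because there is 1 group.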
